A study of Arabidopsis thaliana with 8 samples.

Results

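IMA1 (AT1G47400) is an Arabidopsis thaliana gene of the IRON MAN family, which encodes short peptides. On the arrays used here it was read by 1 probe set, the only one that names the gene, out of 22746 probe sets tested and 13356 genes named alone by a probe set. The gene was chosen by its identity and not by a threshold on these values, but with earlier results of these data known. Roots of fit plants and of WT plants were profiled in 4 groups of 2 biological replicates, 8 arrays in all, and each replicate was hybridised to 1 array. The groups were fit without iron (-Fe), WT -Fe, fit with sufficient iron (+Fe) and WT +Fe. All plants first spent 14 days on Gamborg's medium and then 3 days on agar, where +Fe agar held 50 µM Fe(III)-EDTA and -Fe agar held 300 µM of the iron chelator ferrozine, so that the -Fe groups differ from the +Fe groups by both changes. The fit plants lack normal function of FIT, a bHLH transcription factor (basic helix-loop-helix) that activates the iron uptake genes of the root epidermis; the labels do not name the allele. FIT itself was not analysed here, so the mutation was not checked from the signal of its gene.

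IRON MAN peptides act between the sensing of iron and the uptake response. They bind BTS and its relatives BTSL1 and BTSL2, ubiquitin ligases with hemerythrin domains that otherwise mark transcription factors of bHLH subgroup IVc for degradation. When the ligases are occupied by the peptides, the subgroup IVc factors accumulate and switch on the subgroup Ib factors, which pair with FIT, and IMA1 is itself among the genes that subgroup IVc factors switch on. In roots IMA1 is known for expression in the vasculature, and plants with more of the peptide take up more iron. These statements are background and do not come from the arrays.

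The signal of IMA1 separated all 4 groups. In linear signal intensity it was 1476 and 2578 on the fit -Fe arrays, against 683 and 913 on the WT -Fe arrays. With sufficient iron it was 86.3 and 141 on the fit arrays, against 26.6 and 25.6 on the WT arrays. Every -Fe array lay above every +Fe array, and within each iron level both fit arrays lay above both WT arrays.

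**Figure D1:**
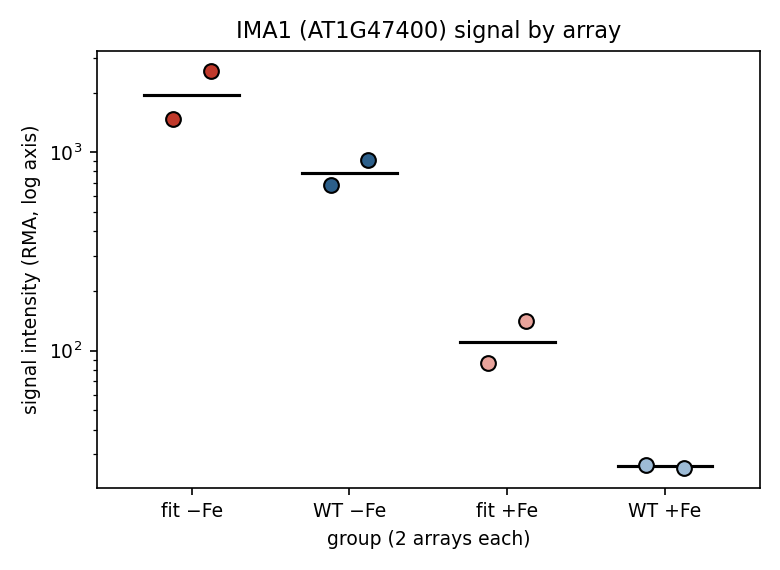
Signal intensity of IMA1 on each of the 8 arrays (points, log axis), with the geometric mean of each group of 2 as a bar. The fit -Fe arrays lie highest, at 1476 and 2578, then WT -Fe, then fit +Fe, and the WT +Fe arrays lie lowest, at 26.6 and 25.6.

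On the log2 scale, on which all tests were run, the group means were 10.93 ± 0.57 in fit -Fe, 9.63 ± 0.30 in WT -Fe, 6.79 ± 0.50 in fit +Fe and 4.71 ± 0.04 in WT +Fe (SD, n = 2 each). Replicate arrays differed 1.75-fold in fit -Fe and 1.34-fold in WT -Fe, 1.64-fold in fit +Fe and 1.04-fold in WT +Fe. The means of each neighbouring pair of groups were further apart than the replicates of either group. Fit -Fe stood 1.30 above WT -Fe on the log2 scale, with 0.69 between the nearest arrays. That gap was smaller than the 0.80 between the 2 fit -Fe replicates. WT -Fe stood 2.84 above fit +Fe, with 2.27 between the nearest arrays, and fit +Fe stood 2.08 above WT +Fe, with 1.70 between them. In linear intensity fit roots with sufficient iron had 14.3% of the mean signal of iron-deficient WT roots, and WT roots with sufficient iron had 3.27% of it. The mean for WT +Fe lay under the lower quartile of all probe sets, 4.96, and no detection calls were used here, so the folds over WT +Fe may be understated. In whole roots, fewer cells that express a gene and less RNA per cell cannot be told apart.

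The full ordering was uncommon among probe sets. Of 22746 probe sets, 71 (0.312%) had all 4 groups apart in the order fit -Fe, WT -Fe, fit +Fe, WT +Fe, and 46 of the 71 named 1 gene. With the further condition that each step be at least 1 on the log2 scale, 3 probe sets remained (0.0132%). These were IMA1, BHLH101 and 245296_at, an unnamed probe set. Both conditions were chosen after the values of IMA1 were seen and are given as a description.

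The first question was how IMA1 responds to iron deficiency. In fit roots IMA1 was 17.7-fold higher without iron (log2 4.14, SE 0.33, 95% interval 3.37 to 4.91, limma adjusted p = 0.00609). Single fit -Fe arrays stood 10.5-fold to 29.9-fold above single fit +Fe arrays. Over all probe sets, 30 were called higher in this comparison (0.132%), a call being an adjusted p under 0.05, while 19.4% had fit -Fe arrays that did not overlap with and lay above the fit +Fe arrays. By size of change IMA1 ranked 3rd from the top. The call was lost in 3 of 19 alternatives: the limma adjusted p was 0.0880 without fit +Fe replicate 1, 0.0554 without fit +Fe replicate 2 and 0.0674 when only the 4 fit arrays were fitted, in a range of 0.000440 to 0.0880 over all of its alternatives. The fold change itself lay between 3.66 and 4.55 on the log2 scale in all 19.

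In WT roots IMA1 was 30.3-fold higher without iron (log2 4.92, SE 0.33, 95% interval 4.15 to 5.69, limma adjusted p = 0.000938), and single -Fe arrays stood 25.7-fold to 35.7-fold above single +Fe arrays, a narrower range than in fit. Here 81 probe sets were called higher (0.356%), while 18.9% had WT -Fe arrays that did not overlap with and lay above the WT +Fe arrays. By size of change IMA1 ranked 5th from the top among all probe sets and 3rd among those naming 1 gene. It was called in each of its 19 alternatives, with a log2 fold change between 4.26 and 5.13.

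Averaged over both genotypes, the iron response of IMA1 was the highest of all 22746 probe sets, at 23.1-fold (log2 4.53, SE 0.24, 95% interval 3.99 to 5.08, limma adjusted p = 0.000162), and it ranked first or second in each of its 18 alternatives. On this comparison of 4 arrays against 4, 90 probe sets were called higher (0.396%) and 4.73% had -Fe arrays that lay above every +Fe array. It uses the same arrays as the preceding comparisons and is no independent support for them.

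**Figure D2:**
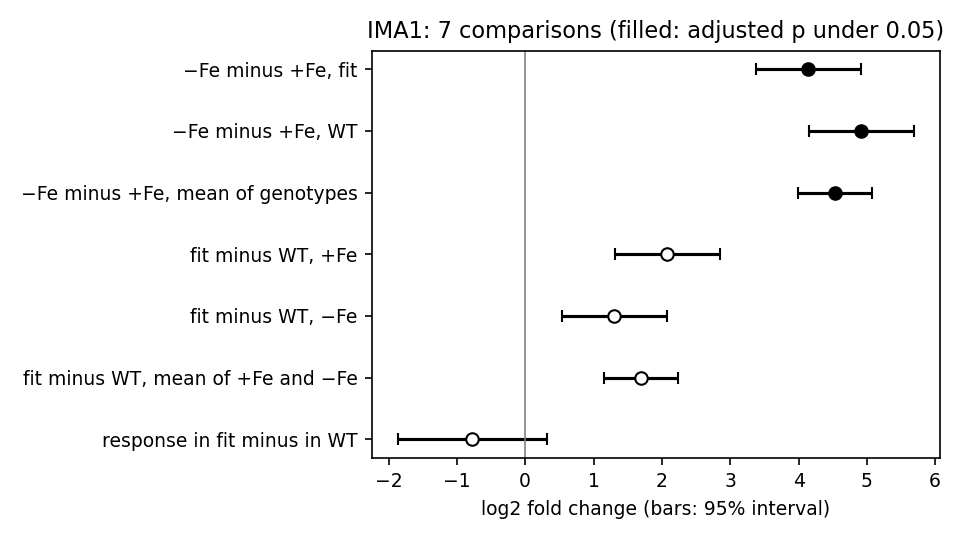
Log2 fold change of IMA1 in the 7 comparisons (points) with 95% intervals of the limma fit (bars); filled points have an adjusted p under 0.05. The iron responses in fit, in WT and their mean lie between 4.14 and 4.92 and are filled, the differences between fit and WT lie between 1.30 and 2.08 with intervals above 0 and are open, and the interval of the difference of responses includes 0.

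The second question was whether IMA1 depends on FIT. At neither iron level was its signal lower in fit roots. With sufficient iron the signal was 4.23 times that of WT (log2 2.08, SE 0.33, 95% interval 1.31 to 2.85), and single fit arrays stood 3.24-fold to 5.52-fold above single WT arrays. The difference was not called (limma adjusted p = 0.381), in a comparison in which 2 probe sets were called higher (0.00879%) and 17.3% had fit arrays that did not overlap with and lay above the WT arrays. It was called in 2 of 19 alternatives, with array weights (limma adjusted p = 0.0318) and with the RNA quality measure described below as a covariate (0.00499), in a range of 0.00499 to 1.00.

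Under iron deficiency the signal in fit was 2.47 times that in WT (log2 1.30, SE 0.33, 95% interval 0.53 to 2.07), with single fit arrays 1.62-fold to 3.77-fold above single WT arrays. This was not called either (limma adjusted p = 0.370) and was called in none of its 19 alternatives, in which the limma adjusted p lay between 0.0601 and 1.00. In this comparison 17 probe sets were called higher in fit (0.0747%), 45 were called lower (0.198%) and 13.5% had fit arrays that did not overlap with and lay above the WT arrays.

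Averaged over both iron levels, the signal of IMA1 in fit was 3.23 times that in WT (log2 1.69, SE 0.24, 95% interval 1.15 to 2.24). It was not called (limma adjusted p = 0.0621), and 15 probe sets were called higher (0.0659%). The fit arrays did not all lie above the WT arrays here, because the WT -Fe arrays exceeded the fit +Fe arrays; 1.16% of probe sets did have all 4 fit arrays above all 4 WT arrays. The difference was called in 5 of 18 alternatives. The limma adjusted p was 0.0268 without the dimmest probe sets, 0.0336 with a trended and robust variance, 0.000764 with the RNA quality covariate, 0.00557 with a replicate block and 0.0267 without fit -Fe replicate 1, and the range over all 18 was 0.000764 to 0.384.

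The third question was whether the iron response differs between the genotypes. On the log2 scale the response in fit minus that in WT was -0.78 (SE 0.47, 95% interval -1.86 to 0.31), which was not called (limma adjusted p = 1.00). The interval allows a response in fit of 0.275 to 1.24 times that in WT. On the linear scale the order turned round: the mean intensity stood 1913 higher without iron in fit and 772 higher in WT. Since the sign depends on the scale, neither value shows that the responses differ or that they are alike. In this comparison 15 probe sets were called lower (0.0659%).

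Of the total sum of squares of IMA1 over the 8 arrays on the log2 scale, iron held 86.0%, genotype 11.99%, their interaction 0.63% and the differences between replicates 1.39%. A low share of interaction was not particular to IMA1: it was 5.77e-05% for PYE, 0.23% for AT1G78550, 0.49% for AT5G05250 and 0.63% for BHLH121. It was 4.42% for BHLH101, 17.96% for BTSL1, 27.3% for S8H and 32.9% for MTP8. For BHLH121, unlike for IMA1, the differences between replicates held 57.5% and iron 26.6%. These shares are a description of the same arrays.

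**Figure D3:**
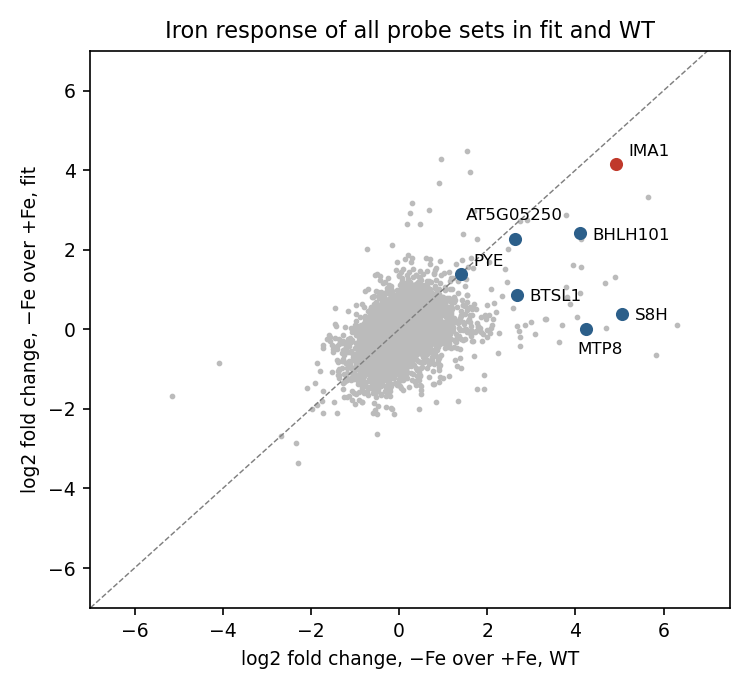
Iron response of each of the 22746 probe sets (grey), as the log2 fold change of -Fe over +Fe, in fit on the vertical axis and in WT on the horizontal axis; the dashed line marks equal responses. IMA1 (red) lies at 4.14 in fit and 4.92 in WT, near the line at the far upper right, while S8H and MTP8 lie far to the right with values in fit of 0.38 and 0.01.

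Genes that act around the peptide did not all share its pattern. The regulator list held 17 loci other than the IRON MAN genes, and 9 were measured, meaning that a probe set named them alone. Of the 9, 2 were called higher without iron in fit, where 0.132% of all probe sets were, and 4 in WT, where 0.356% were, and none was called lower. Their median log2 fold change was 0.22 in fit and 0.64 in WT, against medians over all probe sets of 0.03 in fit and -0.01 in WT. With sufficient iron 1 of the 9, BHLH101, was called higher in fit than in WT (0.00879% of all probe sets). Without iron 1, BTSL2, was called lower in fit (0.198% of all probe sets). In the averaged iron response 4 were called higher (0.396% of all probe sets). In the difference of responses none was called, where 0.0659% of all probe sets were called lower.

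Of the targets of the peptides, BTSL1 had log2 signals of 11.50 and 10.71 in fit -Fe, against 10.26 and 10.24 in fit +Fe. In WT it had 11.49 and 11.18 without iron, against 8.84 and 8.48 with it. The log2 fold change of BTSL1 was 0.86 in fit (SE 0.28, limma adjusted p = 0.451), not called, and 2.68 in WT (SE 0.28, limma adjusted p = 0.00821), called higher. Without iron the fit and WT arrays of BTSL1 overlapped, unlike those of IMA1.

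BTSL2 had linear signals of 628 and 541 in fit -Fe, against 601 and 628 in fit +Fe, so that the fit groups overlapped. In WT it had 1806 and 1610 without iron, against 512 and 530 with it. It was called higher without iron in WT (log2 1.71, SE 0.17, limma adjusted p = 0.00733) and lower in fit than in WT without iron (log2 -1.55, limma adjusted p = 0.0155). BTS, the third ligase, was not analysed here.

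The subgroup IVc factors, which the ligases target and which activate IMA1, had small changes in RNA. The 4 of them, bHLH34, bHLH104, ILR3 and bHLH115, had log2 fold changes of 0.03 to 0.39 in fit and -0.12 to 0.64 in WT, and none was called in either genotype. bHLH121, which works with subgroup IVc factors, had 0.22 in fit and 0.30 in WT and was not called. RNA levels do not report protein levels, and the arrays measure only RNA.

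BHLH101, a subgroup Ib factor downstream of the IVc factors, came closest to IMA1 in the distance between group means. Its linear signal was 3081 and 2922 in fit -Fe, against 1002 and 1463 in WT -Fe. With sufficient iron it was 527 and 603 in fit, against 67.7 and 74.3 in WT. The order of the groups was that of IMA1, with the largest step in a different place. Fit minus WT on the log2 scale was, without iron, 1.31 for BHLH101 and 1.30 for IMA1 and, with sufficient iron, 2.99 for BHLH101 and 2.08 for IMA1. The iron response was 2.41 in fit and 4.09 in WT for BHLH101, beside 4.14 in fit and 4.92 in WT for IMA1. The difference of responses of BHLH101 was -1.68 (SE 0.31) and was not called (limma adjusted p = 0.243).

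PYE, a basic helix-loop-helix repressor of iron homeostasis genes, kept the same order on a smaller scale. Its log2 signal was 8.39 and 8.29 in fit -Fe, against 7.92 and 7.90 in WT -Fe. With sufficient iron it was 7.03 and 6.87 in fit, against 6.46 and 6.57 in WT. The 4 groups of PYE did not overlap, as was so in this order for 0.312% of all probe sets. Its iron response was called in fit (log2 1.39, limma adjusted p = 0.0268) and in WT (log2 1.39, limma adjusted p = 0.0153).

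Of 9 listed loci of iron uptake and coumarin synthesis, which include genes that need FIT, 4 were measured, and none of these was called higher without iron in fit (0.132% of all probe sets) and 3 were in WT (0.356%). Without iron 3 of the 4 were called lower in fit than in WT (0.198% of all probe sets). None of the 4 was called in the difference of responses, with limma adjusted p-values of 0.0631 for BGLU42 to 0.938 for COSY. S8H, which makes the coumarin fraxetin, had log2 signals of 5.37 and 6.76 in fit -Fe, against 11.18 and 10.71 in WT -Fe. Of 16 loci of iron movement inside the plant only MTP8, a vacuolar metal transporter, was measured, and of 4 ferritin loci none. MTP8 had 5.28 and 4.97 in fit -Fe, against 9.59 and 9.14 in WT -Fe, and was called lower in the difference of responses (log2 -4.23, SE 0.32, limma adjusted p = 0.00536). In iron-deficient roots IMA1 lay on the opposite side of WT from S8H and MTP8, with the lower of its fit arrays above the higher of its WT arrays. The lists come from general knowledge of iron homeostasis, which includes work on fit.

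**Figure D4:**
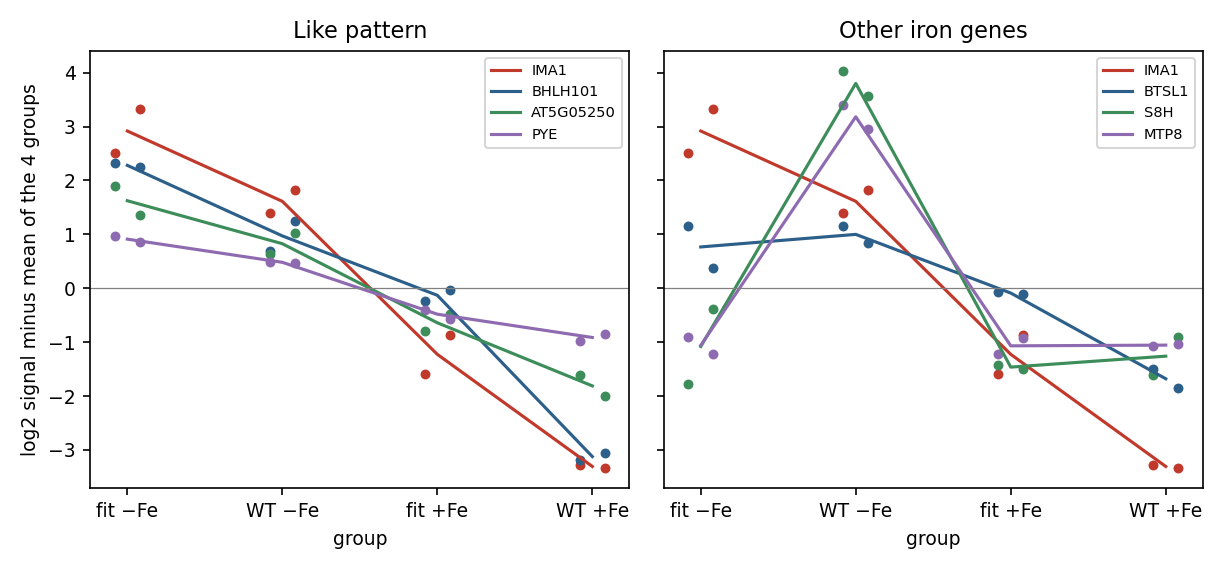
Log2 signal of IMA1 and 6 other genes, each minus the mean of its 4 group means, by group; points are arrays and lines join group means to guide the eye. BHLH101, AT5G05250 and PYE (left) fall in the same order of groups as IMA1, while S8H and MTP8 (right) are high in WT -Fe only and BTSL1 is close in fit -Fe and WT -Fe.

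The genes of most like pattern were found in the whole table in 2 ways, each a description without a test. The first was Pearson's r of log2 signal with IMA1 over the 8 arrays, which share the 4 groups and so are not a free sample. Over the 13512 other probe sets naming 1 gene the median r was 0.118, and 114 had an r over 0.9. The 10 highest, from 0.962 to 0.980, were AT1G78550, AT1G09010, AT5G05250, PYE, AT4G34880, AT1G23120, AT1G27385, AT2G46900, AT3G57480 and AT1G19110. Of these, AT5G05250 and PYE were called higher without iron in both genotypes, where 0.132% of all probe sets were in fit and 0.356% in WT. The other 8 followed the shape of IMA1 at a small size, with log2 iron responses of 0.27 to 0.76 in fit and 0.35 to 0.81 in WT, and none of them was called in either genotype.

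AT5G05250 had an r of 0.980 and a Spearman's rho of 0.976 with IMA1. Its log2 signal was 11.18 and 10.64 in fit -Fe, against 9.92 and 10.31 in WT -Fe. With sufficient iron it was 8.49 and 8.80 in fit, against 7.67 and 7.28 in WT. Its 4 groups did not overlap, as was so in this order for 0.312% of all probe sets. Its iron response was 2.26 in fit (SE 0.27, limma adjusted p = 0.0233) and 2.64 in WT (SE 0.27, limma adjusted p = 0.00682). AT5G05250 was picked for its likeness to IMA1 over these same arrays, so its order and its calls are no separate support. It was the only gene among both the 10 highest by r and the 5 nearest by the distance described next. This depends on the cut at 10, since BHLH101, the nearest by distance, had an r of 0.961, just under the lowest of the 10.

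The second measure was the Euclidean distance between group means, each gene centred on its own mean, which also weighs the size of the changes. The 5 nearest genes were BHLH101 at a distance of 1.43, AT5G05250 at 2.21, AT5G09570 at 2.38, AT2G21640 at 2.82 and AT2G41730 at 2.86. AT5G09570 encodes a small mitochondrial cysteine-rich protein, and AT2G21640 is used as a marker of oxidative stress in mitochondria. The last 3 had a lower r with IMA1 than the first 2, at 0.891, 0.801 and 0.802. Their Spearman's rho was 0.857, 0.929 and 0.786. AT5G09570 had log2 signals of 10.36 and 10.63 in fit -Fe, against 7.62 and 8.29 in WT -Fe. With sufficient iron it had 6.54 and 6.55 in fit, against 6.07 and 6.65 in WT, and these overlapped, whereas those of IMA1 did not. The probe set of AT2G41730 is of a type that can share probes with other genes.

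The other loci of the family on the list, AT1G47395 (IMA2), AT2G30766 (IMA3) and AT1G07367, were named alone by no probe set and were not analysed here. AT1G47395 is the next gene to IMA1 on chromosome 1 in the RefSeq gene order of TAIR10.1. AT1G07367, annotated there as a long non-coding RNA, lies 2 places away on the other side. Whether the probe set of IMA1 also binds RNA of a related gene was not tested. Among the 5 annotated genes on either side, 2 were measured, AT1G47370 and AT1G47380. Their log2 iron responses were 0.50 and -0.75 in fit and 0.09 and -0.30 in WT, and neither was called in any of the comparisons of 2 groups or in the difference of responses.

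RNA quality differed between arrays of the -Fe groups. Actin, GAPDH and ubiquitin have control probe sets at both ends of the transcript, which gave a geometric mean ratio of 3' to 5' signal of 1.499 and 5.22 on the fit -Fe arrays and of 1.13 and 3.08 on the WT -Fe arrays. On the +Fe arrays the ratio was 1.07 and 1.53 in fit and 1.41 and 1.43 in WT. In 3 of the 4 groups the array with the higher ratio had the higher IMA1 signal. Leaving out the 2 arrays of ratio over 2 left 1 array in each -Fe group. The spread of IMA1 then came from its +Fe replicates, drawn by limma toward that of all probe sets. The lone arrays were assumed to vary in the same way. In that fit the iron response of IMA1 was 3.74 in fit and 4.71 in WT. With the ratio as a covariate it was 3.66 in fit and 4.75 in WT. Without the 2 arrays of ratio over 2, fit stood 1.11 above WT under iron deficiency on the log2 scale, a comparison of 1 array with 1 array. With the covariate, fitted to all 8 arrays, it stood 1.05 above WT.

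The tissue label could be checked only in part. Of the root markers listed, EXPA7 and EXPA18, expansins of root hairs, were measured, and of 6 stele and phloem markers none. The tissue in which IMA1 is known to be expressed thus had no marker of its own here. The summed intensity of the 2 root hair markers was 357 to 424 in fit -Fe, 717 to 1091 in WT -Fe, 872 to 989 in fit +Fe and 547 to 938 in WT +Fe, which is lowest where IMA1 was highest. The iron response of neither was called in fit (limma adjusted p = 0.321 for EXPA7 and 0.313 for EXPA18). The summed intensity of 3 shoot photosynthesis genes, RCA, LHCB4.1 and PORB, was 448 to 471 in fit -Fe, 380 to 477 in WT -Fe, 507 to 674 in fit +Fe and 590 to 598 in WT +Fe. The part of these markers in the values of IMA1 was not tested.

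**Figure D5:**
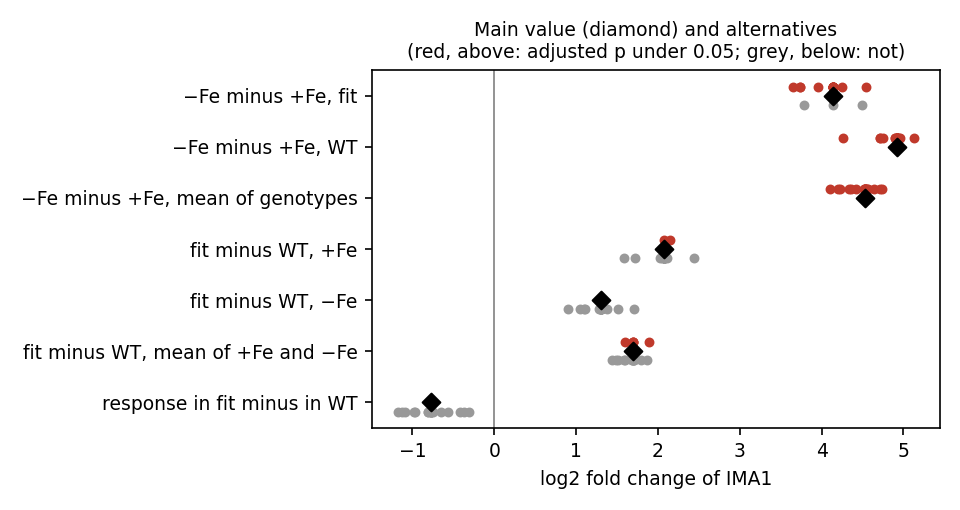
Log2 fold change of IMA1 in the 7 comparisons, as reported (diamonds) and under each alternative (circles, red and raised where the adjusted p is under 0.05, grey and lowered where it is not). No value crosses 0, the iron responses in WT stay red throughout, and the differences between fit and WT are mostly grey.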

How the data were processed

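Total RNA from roots was labelled with biotin and hybridised to Affymetrix arrays, per the labels' protocols. The deposited signal intensity values were made by the authors with RMA, per the submitters' processing notes. The sources used here do not give its version or say if the arrays were normalised jointly. The values were linear, from 7.13 to 21060, and log2 was taken. Array medians lay between 6.81 and 6.88 on the log2 scale. Precision is limited by the number of arrays, 2 per group. The labels call the replicates biological and say no more, so p-values measure the spread between these arrays.

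The 64 control probe sets were left out, and 22746 were tested. Names came from the platform's annotation and RefSeq (TAIR10.1): 13513 probe sets named 1 gene, 503 several and 8730 were unnamed here. No coordinates are printed, because no source used here names a build for the array, and no sequences were read.

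One mean per group was fitted to all 8 arrays with limma 3.58.1 in R 4.3.3 (lmFit, eBayes), with p-values adjusted by Benjamini-Hochberg over all probe sets, for 7 comparisons. The shared spread means that each group's error draws on the others. limma also drew the residual SD of IMA1, 0.41, toward that of all probe sets, to 0.33. The SEs of IMA1 are therefore lower than its own arrays alone would give. An exact permutation test of 2 arrays against 2 cannot go below p = 0.333. The fit was tested on simulated data. The gene, the lists and the tests were chosen with earlier results of these data known.

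The genes named are IMA1, all measured members of the regulator list, examples from the other lists, and the 10 and 5 genes most like IMA1 by correlation and by distance. The 12 kinds of alternative covered scale, normalisation, filters, variance model, arrays fitted, an RNA quality covariate and a replicate block. The ratio over which arrays were left out was 2.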

Additional observations from a re-analysis of the deposited data

Results flagged for a closer look

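For IMA1 itself no group held enough arrays to look for an outlying one, and its iron response was not called as differing between the genotypes. Among the genes set beside it, MTP8 had an iron response that differed between fit and WT by a log2 difference of -4.23 (limma adjusted p = 0.00536). In 3 others every array of one comparison moved one way and every array of the other the opposite way, and the difference was not called by limma. Of the 32 genes examined these were 3, while 5.29% of all probe sets showed one or the other such pattern, and nothing is read from the count. BTSL2 lay below WT in fit without iron and above it with iron, with a log2 difference of responses of -1.79 (adjusted p = 0.0991). ILR3 did the same, with -0.50 (adjusted p = 1.00). COSY, the coumarin synthase, was lower without iron in fit and higher without iron in WT, with -1.03 (adjusted p = 0.938).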

How the results depend on the processing

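Of 130 alternative values of the 7 comparisons of IMA1, 120 kept their direction and their side of the threshold, 3 lost a call, 7 gained one and 0 changed direction. The iron response in fit kept its value of 4.14 when only the 4 fit arrays were fitted, but its SE was then 0.37 and it lost its call. When only the 4 WT arrays were fitted, the SE of the iron response in WT was 0.21 and the call was kept. In the fit to all 8 arrays both responses shared an SE of 0.33. The difference between fit and WT with sufficient iron gained a call under array weighting (2.08) and with the RNA quality ratio in the model (2.14). The mean difference between fit and WT over both iron levels gained a call without the dimmest probe sets (1.69), with a trended and robust variance (1.69), with the covariate (1.60) and with a replicate block (1.69). The cause of these was not tested. Leaving out each array in turn gave 3.74 to 4.55 for the iron response in fit, 4.71 to 5.13 in WT, 4.33 to 4.73 for their mean, 1.72 to 2.44 for fit against WT with sufficient iron, 0.90 to 1.71 under iron deficiency, 1.49 to 1.89 for their mean and -1.18 to -0.37 for the difference of responses. Such a fit leaves 1 group with a single array, which is assumed to vary like the others. The value for iron deficiency is lowest without fit -Fe replicate 2.

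Equal replicate numbers are not said to mark pairs, and with 2 per group the check of pairing cannot settle it. Differences between replicates 1 and 2 correlated between groups over probe sets at 0.131 to 0.659. The highest value was for fit -Fe with WT -Fe, the groups whose replicate 2 had a 3' to 5' ratio over 2. Pairing and RNA quality cannot be told apart there. With the replicate block the iron responses had limma adjusted p-values of 0.000555 in fit and 6.68e-05 in WT, and fit against WT had 0.0569 with sufficient iron and 0.0682 under iron deficiency.

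Counts of calls over all probe sets moved by over 1.5 times: 46 became between 1 and 147 for the iron response in fit, 98 became between 26 and 382 in WT, 2 became between 0 and 20 for fit against WT with sufficient iron, 62 became between 10 and 188 under iron deficiency, 17 became between 3 and 93 for the difference of responses, 142 became between 43 and 712 for the averaged iron response and 35 became between 13 and 110 for the averaged difference between fit and WT. With log2(value + 16), which damps dim values, the iron response was 3.96 in fit and 4.26 in WT. Fit against WT with sufficient iron was then 1.59, the lowest of its alternatives, and the difference of responses was -0.30. The mean signal of 4.71 in WT +Fe limits every fold over that group.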
